A study of Mus musculus with 2 samples.

Results

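Crowded neighbourhoods are the parts of the mouse autosomes where the regions listed with counts of 5-methylcytosine (5mC) signal lie close together. A region on chromosomes 1 to 19 was taken as crowded when at least 25 other listed regions of its chromosome started within 500 kb of its own start. The rule uses position alone, and no count entered it. Of the 23339 autosomal regions, 6432 (27.6%) were crowded, out of 23946 regions listed for the whole genome. The remaining 16907 autosomal regions served as the comparison.

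The study measured methylated DNA immunoprecipitation with sequencing (MeDIP-seq) in tet-Zscan4c embryonic stem (ES) cells of the MC1 line (129S6/SvEvTac), kept without feeders and with leukemia inhibitory factor. Both libraries carry the same Zscan4-Flag transgene, which doxycycline switches off. The dox+ library (Zscan4-) came from cells given 1.5 µg/ml of the drug, and the dox- library (Zscan4+) from cells without it. With 1 library per group there was no replicate check on any value, and drug and transgene cannot be told apart. A library without the transgene, an input library and a repeat culture were not analysed here. Over all listed regions the dox- library summed to 51169 counts and the dox+ library to 70219.

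In mammals 5mC lies mainly at CpG dinucleotides, where Dnmt1 copies it after replication and Dnmt3a and Dnmt3b place it anew. CpG sites are spread unevenly along a chromosome, denser in GC-rich, gene-rich parts, and the 5mC antibody recovers a fragment with many methylated CpGs more readily than one with few. Zscan4 proteins carry a SCAN domain and zinc fingers and are made in the 2-cell embryo and in a small, changing share of ES cells. The table gives mm9 positions without gene names, and the annotation at hand was of another build, so no gene, exon or sequence is assigned to any region below. How the listed regions were chosen is not given in the sources used here, so whether their spacing already depends on signal was not tested.

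Crowded regions were concentrated on a few chromosomes. Chromosome 11 held 850 of them, 47.4% of its regions and 13.2% of all crowded regions. Chromosome 17 followed with 43.0% of its regions, then chromosome 7 with 39.8%, chromosome 4 with 35.7%, chromosome 19 with 35.6% and chromosome 8 with 34.8%. At the other end, 10.1% of the regions of chromosome 14, 12.7% of chromosome 12, 14.7% of chromosome 18 and 16.0% of chromosome 1 were crowded. The order follows the overall spacing of the list only in part. Chromosome 11 had 15.1 listed regions per Mb and chromosome 1 had 7.26, but chromosome 16, with 8.49 per Mb, had 30.2% crowded regions against 23.2% on chromosome 9 with 10.4 per Mb.

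**Figure D1:**
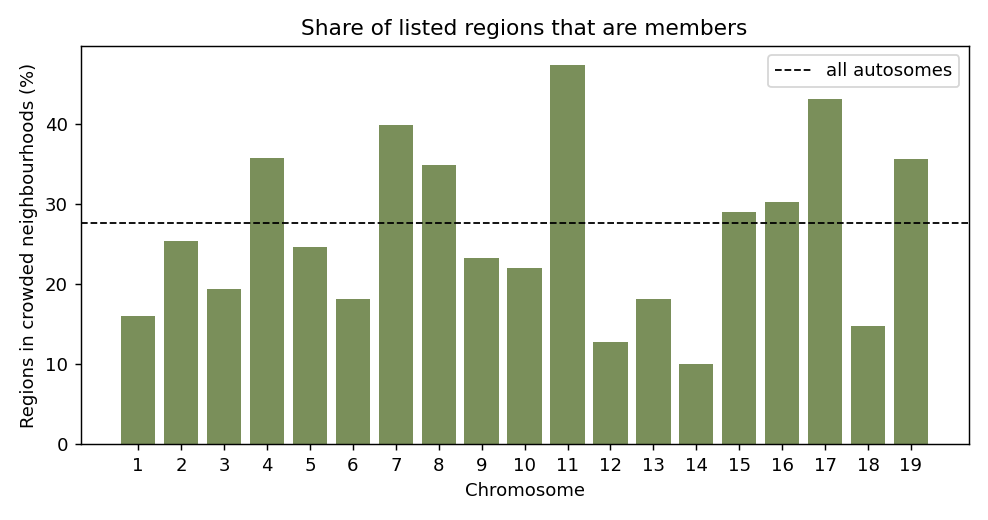
The bars give, for each autosome, the percentage of its listed regions that had at least 25 other regions within 500 kb, and the dashed line gives the percentage over all autosomes (27.6%). Chromosome 11 stands highest at 47.4% and chromosome 14 lowest at 10.1%.

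Pooled over the autosomes, crowded regions were most frequent at the distal end. Mouse autosomes are acrocentric, with the centromere at the start of the coordinates. The listed span of each chromosome was divided into 5 equal parts. The last 20% held 2026 crowded regions, 31.5% of them against 21.6% of the others. The first 20% held 21.2% against 20.5%, and the part from 20 to 40% held 12.4% against 19.4%. The high share in the last 20% was not found on all chromosomes. On chromosome 4, 430 crowded regions (75.8% of those on the chromosome) lay in the last 20%, and on chromosome 11, 346 (40.7%). None lay there on chromosomes 3, 14 and 18, and 13 (2.66%) lay there on chromosome 17. The share in the last 20% was higher for crowded than for other regions on 11 of the 19 autosomes.

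Crowded regions joined into 191 stretches when those whose starts followed each other within 500 kb were linked. The stretches spanned 163 Mb in all, 6.76% of the 2408 Mb between the outermost listed regions of the autosomes, and every autosome had at least 1. A stretch held a median of 26 crowded regions and at most 199, and 14 stretches were a single region. The most crowded region of all, R19570 on chromosome 7 (mm9, 52483986 to 52485848), had 67 neighbours. It is 1862 bp long and held 9 counts in the dox- and 13 in the dox+ library. The nearest other region started a median of 7.59 kb away from a crowded region (quartiles 3.84 and 14.6 kb), against 14.4 kb (5.26 and 43.9 kb) for the others, a difference that follows from the rule.

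The crowded regions differed little in length from the others. Their median was 1124 bp (quartiles 1000 and 1682 bp), against 1105 bp (1000 and 1659 bp). Exactly 1000 bp, the shortest length in the table, was measured in 43.6% of crowded and 44.6% of other regions, and 2000 bp or more in 4.93% and 4.75%. The longest crowded region had 3973 bp and the longest other region 7077 bp. Few regions overlapped the one before, 147 crowded ones (2.29%) and 362 others (2.14%), so that overlaps were about as common in both. Whether reads in overlaps were counted in both regions was not tested.

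Crowded regions carried more 5mC signal per length than the others in both libraries. All 6432 have an adjusted value in the table and entered these sums. The comparison used the 16899 other regions with an adjusted value, since 8 others have none. The dox+ library had 2.47 raw counts per kb in crowded regions and 2.01 in the others, 1.23 times as many (95% exact binomial interval 1.21 to 1.25). The dox- library had 1.83 and 1.45 counts per kb, 1.26 times as many (1.24 to 1.29). These intervals cover counting error alone, treat reads as independent molecules, which PCR copies without molecular identifiers are not, and carry no spread between cultures. The same direction in both libraries is the only repeat the design offers. Crowded regions, 27.6% of the autosomal regions with an adjusted value, held 32.7% of the autosomal dox- counts and 32.0% of the dox+ counts.

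The higher signal came with fewer empty and more well-filled regions. No count was seen in either library in 460 crowded regions (7.15%) and in 1970 others (11.7%). In the dox- library 24.1% of crowded and 31.7% of other regions were empty, and in the dox+ library 16.2% and 21.7%. The median crowded region held 2 counts in each library, against 1 dox- and 2 dox+ counts in the others. A summed count of 20 or more was reached by 230 crowded regions (3.58%) and 384 others (2.27%). Those 230 regions held 18.0% of all counts of the crowded set. Without regions of 20 or more counts the signal per kb of crowded over other regions was 1.23 in the dox- library (1.21 to 1.26) and 1.20 in the dox+ library (1.18 to 1.22). Among the regions with at least 10 counts, a filter on the measure itself, it was 0.992 (0.965 to 1.02) and 0.985 (0.961 to 1.01). At 20 or more counts, crowded regions had 0.962 times the dox- signal (0.919 to 1.01) and 0.930 times the dox+ signal (0.893 to 0.969), at a median length of 1624 bp against 1444 bp. Well-filled regions were thus more frequent in the crowded set, and held no more counts per kb than well-filled other regions. Because the filter sets the lowest count, values per kb after it also depend on length, and a difference in density was not tested.

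The difference in signal was present at each length. Among regions of exactly 1000 bp, the crowded ones had 1.23 times the dox- counts per kb of the others (1.19 to 1.27) and 1.16 times the dox+ counts (1.13 to 1.19). Over 1000 and under 2000 bp the values were 1.29 (1.26 to 1.32) and 1.27 (1.24 to 1.30), and at 2000 bp or more 1.24 (1.16 to 1.34) and 1.21 (1.14 to 1.28).

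Signal rose with crowding as a gradient, most of it below the threshold of 25 neighbours. Regions with 0 to 4 neighbours had 0.938 dox- counts per kb (exact Poisson interval 0.902 to 0.975) and 1.34 dox+ counts (1.29 to 1.38). With 10 to 14 neighbours the values were 1.50 (1.47 to 1.54) and 2.08 (2.04 to 2.12), and with 20 to 24 they were 1.75 (1.71 to 1.79) and 2.43 (2.38 to 2.48). Inside the crowded set the range was narrower. The class with 25 to 29 neighbours had 1.68 dox- (1.63 to 1.73) and 2.36 dox+ counts per kb (2.30 to 2.41), no higher than the class just below. The peak lay at 35 to 39 neighbours, with 1.99 (1.92 to 2.07) and 2.59 (2.51 to 2.68). The 512 regions with 50 to 67 neighbours had 1.81 (1.71 to 1.91) and 2.48 (2.36 to 2.60). At the edge of the set, the 947 regions with 25 or 26 neighbours had 1.67 dox- and 2.33 dox+ counts per kb, and the 1235 with 23 or 24 had 1.78 and 2.44. Signal just above the threshold was 0.940 times that just below it in the dox- library (0.888 to 0.994) and 0.958 times in the dox+ library (0.913 to 1.005).

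**Figure D2:**
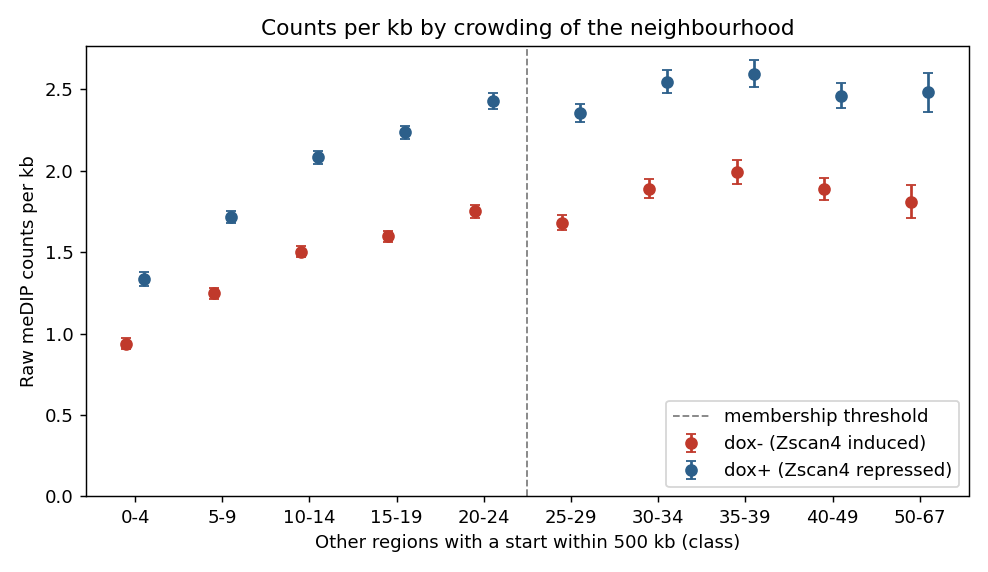
Points give the raw counts per kb summed over the autosomal regions of each class of neighbours, in the dox- and dox+ library, with 95% exact Poisson intervals for counting error. Both libraries climb from 0.938 and 1.34 at 0 to 4 neighbours to 1.75 and 2.43 at 20 to 24, and stay between 1.68 and 1.99 (dox-) and between 2.36 and 2.59 (dox+) right of the dashed threshold.

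The higher signal was found on nearly all chromosomes. In both libraries, crowded regions had more counts per kb than the others of the same chromosome on 18 of 19 autosomes, and the interval lay above 1 in both libraries on 16. Chromosome 15 had among the widest gaps, 1.39 times in the dox- library (1.26 to 1.52) and 1.31 times in the dox+ library (1.21 to 1.42), with 1.87 against 1.35 dox- counts per kb. On chromosome 14 the values were 1.02 (0.870 to 1.20) and 1.01 (0.884 to 1.16), not distinguishable from 1 at the depth of its 91 crowded regions. Chromosome 13 went the other way, at 0.895 (0.794 to 1.01) and 0.850 (0.767 to 0.941). Its 202 crowded regions form 6 stretches. The lowest in the dox+ library ran from 21454065 to 22285648, with 43 crowded regions, 0.919 dox- and 1.17 dox+ counts per kb, while the one from 63613926 to 64472496, with 35 crowded regions, had 1.67 and 2.26.

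**Figure D3:**
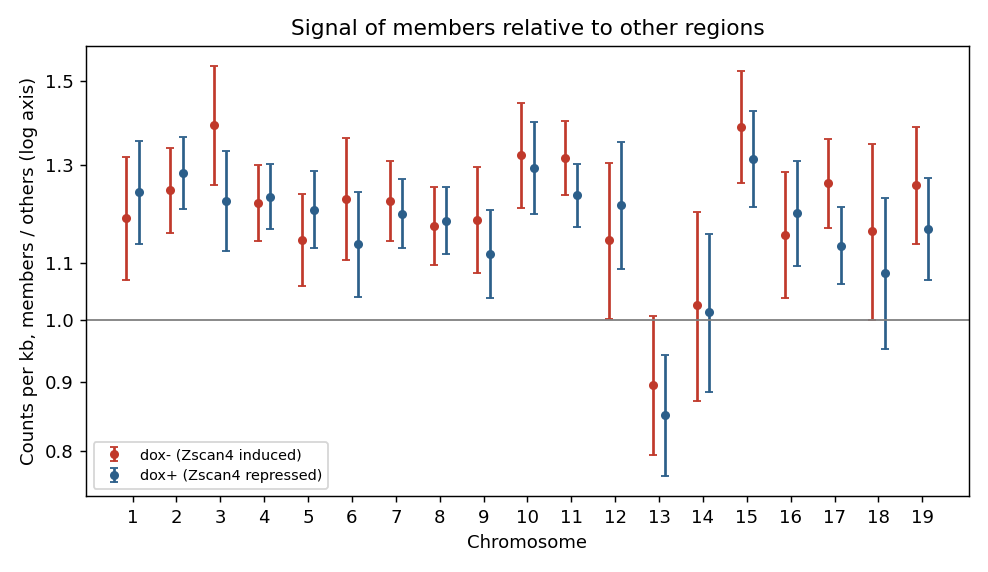
Points give counts per kb of crowded over other regions within each autosome on a log axis, for the dox- and dox+ library, with 95% exact binomial intervals for counting error. All chromosomes but 13 lie above 1 in both libraries, with chromosome 14 close to 1.

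The gap was narrowest in the last 20% of the listed span, where both crowded and other regions held their highest signal. In the first 20% of the listed span, crowded regions had 1.27 times (1.22 to 1.31) the dox+ counts per kb of the others, from 2.32 against 1.83. In the last 20% they had 1.11 times (1.08 to 1.15), from 2.70 against 2.43. The dox- library gave 1.33 (1.27 to 1.39) and 1.13 (1.09 to 1.17) for the same parts. The gap was widest in the part from 20 to 40%, at 1.42 (1.35 to 1.49) in the dox- and 1.38 (1.32 to 1.45) in the dox+ library.

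Crowded regions held nearly equal relative signal in both libraries. With the libraries set to equal totals over the 23932 regions of the genome with an adjusted value, the dox- to dox+ ratio was 1.02 over the crowded regions (95% exact binomial interval 0.9999 to 1.04, from 15761 dox- and 21263 dox+ counts) and 0.990 over the others (0.976 to 1.005, from 32481 and 45165). This scaling removes any change that all regions share. The ratio of 1.02 flips below 1 under other scalings, to 0.927 with edgeR's TMM, 0.847 with DESeq2's median of ratios and 0.741 without scaling. Every dox- to dox+ ratio of a class, stretch or region below also uses equal totals. Each of these other scalings lowers all of them by a common factor, so their side of 1 depends on the scaling. The comparison of the sets does not depend on the scaling: crowded regions had 1.03 times the dox- to dox+ ratio of the others (95% exact conditional interval 1.01 to 1.06).

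This relative difference of about 3% was at the edge of counting error. It was 1.02 (0.998 to 1.05) when crowded and other regions were compared within chromosomes by the Mantel-Haenszel method. It was 1.03 when they were compared within classes of summed count (0.9998 to 1.05). The interval also reached 1 without chromosome 17 (0.998 to 1.05) and without chromosome 3 (0.9996 to 1.05). The value was larger with a minimum of 30 neighbours, 1.05 (1.02 to 1.08), and in regions of exactly 1000 bp, 1.06 (1.02 to 1.11). Of the 19 autosomes, 12 had a value above 1 and 7 below, and the interval left out 1 only on chromosome 17, at 1.11 (1.01 to 1.23). Stretches of crowded regions scattered more than counting error gives, with a variance of 1.27 times the binomial one over the 140 stretches of 10 or more regions, so intervals for counting error alone are too narrow.

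The ratio did not climb steadily with crowding. It was 0.983 (0.947 to 1.02) at 25 to 29 neighbours and 1.02 (0.979 to 1.07) at 30 to 34. The classes of 35 to 39 and 40 to 49 both stood at 1.06 (1.01 to 1.11 in each), and 50 to 67 neighbours gave 1.00 (0.931 to 1.08). The side of 1 on which these and the following ratios lie holds for equal totals only, while their order does not depend on the scaling. Regions with 25 or 26 neighbours had a ratio of 0.987 (0.934 to 1.04) and those with 23 or 24 of 1.01 (0.960 to 1.06). By summed count, crowded regions with 1 or 2 counts had a ratio of 0.938 (0.865 to 1.02), those with 3 to 9 of 1.02 (0.990 to 1.05), those with 10 to 19 of 0.985 (0.948 to 1.02) and those with 20 to 49 of 1.09 (1.04 to 1.15). The 19 crowded regions with 50 counts or more had 1.20 (1.07 to 1.35). Other regions with 20 to 49 counts had 1.08 (1.04 to 1.13) and the 26 with 50 or more 1.05 (0.960 to 1.15).

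**Figure D4:**
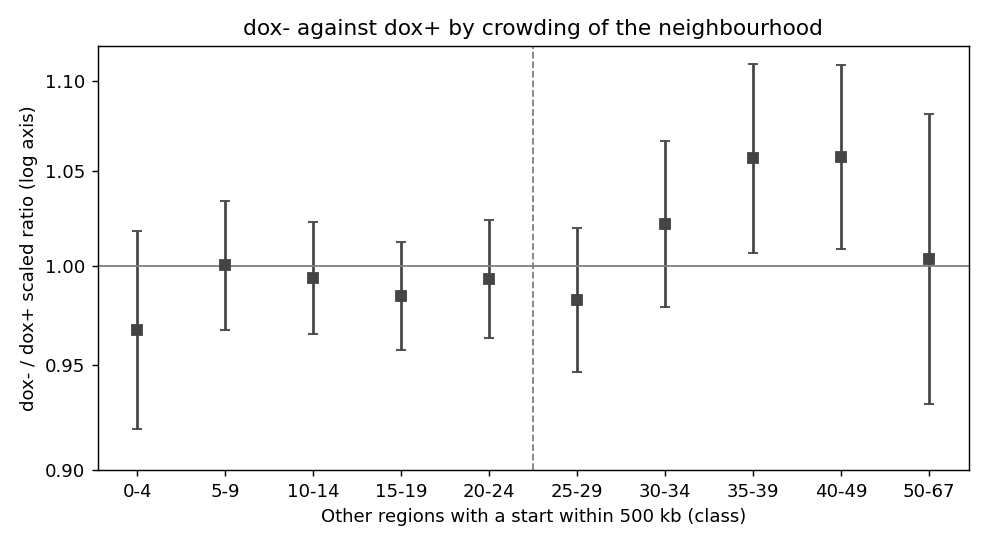
Squares give the scaled dox- to dox+ ratio of summed counts for each class of neighbours on a log axis, with 95% exact binomial intervals for counting error. With equal totals, the classes of 35 to 39 and 40 to 49 neighbours stand at 1.06 with intervals above 1. The intervals of all other classes include 1. Other scalings shift all classes down by a common factor.

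Single crowded regions passed a 2-fold difference at shares near the background. With a pseudocount of 1 added to the scaled counts, 1026 crowded regions (16.0%) were lower by 2-fold or more in the dox- library, against a background of 15.7% over all autosomal regions. Another 1017 (15.8%) were higher, also against 15.7%. A single dox- count with none in dox+ passes this threshold and a single dox+ count does not. With a pseudocount of 10 the lower and higher crowded regions numbered 0 and 1, and without scaling 1979 and 878. Leaving out the scaling moves every region with a count toward the dox+ side, crowded or not. The shares over all autosomal regions under these settings are not given, so a difference from the background there was not tested. The median log2 ratio was 0 in both sets. Among the 1045 crowded regions with at least 10 counts, 95 (9.09%) were lower and 85 (8.13%) higher by 2-fold, where the background was 9.34% and 8.46%.

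A count in the dox- library alone was seen in 581 crowded regions (9.03%, others 10.1%, all autosomal regions 9.77%). A count in the dox+ library alone was seen in 1088 of the 6432 crowded regions and in 3382 of the 16899 others. Both libraries had a count in 66.9% of crowded and 58.3% of other regions. Across crowded regions the counts of both libraries were correlated (Pearson r 0.72, Spearman rho 0.53), a description over 6432 regions that share both libraries and are not independent.

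The 10 stretches with the most regions held 1398 crowded regions, 21.7% of the set, and all 10 had more counts per kb in both libraries than the non-crowded regions. The longest was on chromosome 17 (23810177 to 29798662), with 199 regions, 505 dox- and 627 dox+ counts, which gave a ratio of 1.11 (0.985 to 1.25). Next came a stretch in the distal part of chromosome 4 (131573863 to 136043238), with 187 regions and a ratio of 1.18 from 530 and 621 counts (1.04 to 1.32). The stretch of chromosome 7 (27767297 to 31515312) had 177 regions and, from 543 and 687 counts, a ratio of 1.09 (0.971 to 1.22). These 3 lay on the same side of 1, and the interval left out 1 for chromosome 4.

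On chromosome 8 (71918458 to 75369740) the ratio was 1.09 (0.961 to 1.23) from 454 and 574 counts in 160 regions. The stretch closest to a centromere among the 10, on chromosome 19 (3699427 to 7464007), had 139 regions and, from 396 and 472 counts, a ratio of 1.16 (1.01 to 1.32). Ratios of 1.10 (0.951 to 1.27) and 1.13 (0.952 to 1.34) were found on chromosome 10 (78958702 to 81119077, 112 regions) and chromosome 3 (94385415 to 96532752, 107 regions). Chromosome 11, the most crowded chromosome, had 3 of the 10 stretches. They gave 0.907 (0.767 to 1.07) at 100059352 to 102929557, 0.925 (0.789 to 1.08) at 96683367 to 98885739 and 1.07 (0.919 to 1.24) at 115242200 to 118002956. Of the 10 stretches, 8 were above 1 with equal totals and 2 had an interval that left it out. Without any 1 of the 10, the relative value of crowded over other regions stayed at 1.03, with a lower bound above 1 (1.00025 without the chromosome 4 stretch). Each stretch holds a small part of the crowded counts, so leaving it out can move this value little. The bounds cover counting error only and are too narrow for the scatter between stretches.

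Over all 140 stretches with 10 or more crowded regions, 70 ratios were above and 70 below 1, with a median of 0.998 (quartiles 0.891 and 1.11). Equal totals place the pooled ratio of all autosomal regions at 1.00, so this balance around 1 is largely set by the scaling. The other scalings lower every ratio by a common factor, so the numbers on each side of 1 hold for equal totals only. The interval lay above 1 for 6 stretches and below 1 for 4, 7.14% of the 140. The highest ratio was on chromosome 6 (124386192 to 125375855), where 35 regions held 98 dox- and 82 dox+ counts, a ratio of 1.65 (1.21 to 2.23), with no region of 20 or more counts. A stretch of chromosome 13 (97836365 to 98471887) followed, at 1.58 (1.08 to 2.31) from 63 and 55 counts in 30 regions. The lowest ratio was on chromosome 3 (121438463 to 121751873), 0.475 (0.206 to 1.002) from 10 and 29 counts in 10 regions, an interval that includes 1. Of the low stretches whose interval left out 1, 28 regions of chromosome 2 (70860627 to 71654254) stood at 0.644 (0.437 to 0.934), from 43 and 92 counts. Close to them, 15 regions of chromosome 5 (122951118 to 123601260) stood at 0.668 (0.463 to 0.952), from 48 and 99 counts. These 5 were picked for their values out of 140, so their intervals are no test.

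**Figure D5:**
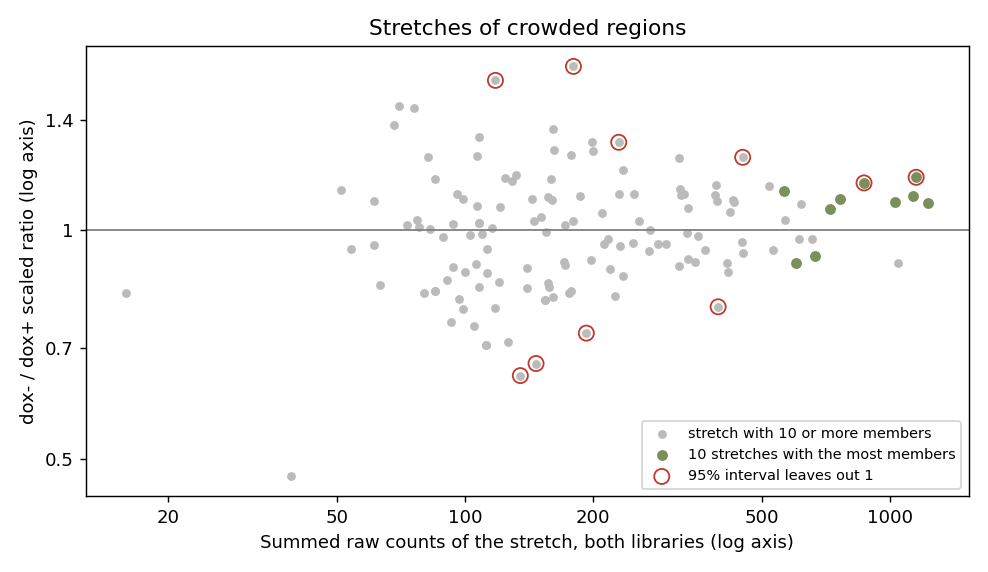
Each point is a stretch of 10 or more crowded regions, with its summed counts in both libraries (x, log axis) and its scaled dox- to dox+ ratio (y, log axis). The 10 stretches with the most regions lie between 0.907 and 1.18, and circles mark the 10 of 140 stretches whose 95% exact binomial interval leaves out 1.

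Signal per kb varied widely between stretches. Of the 140 stretches, 89 exceeded the non-crowded regions in both libraries, 25 were below in both and 26 were mixed. The dox+ signal ran from 0.794 to 5.52 counts per kb, with a median of 2.33, and the dox- signal from 0.476 to 3.23, with a median of 1.68. The distal chromosome 4 stretch from 146523002 to 150053119 had the highest dox- signal, with 98 regions, 3.23 dox- and 4.91 dox+ counts per kb and 17 regions of 20 or more counts. Its ratio was 0.906 (0.798 to 1.03). The lowest signal in both libraries was on chromosome 6 (149016998 to 149260813), where 10 regions held 6 and 10 counts.

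The crowded regions with the most counts per kb were mostly of the shortest length, with dox- to dox+ ratios from 0.633 to 3.83. R21119 on chromosome 8 (72078089 to 72079089) led with 36 dox- and 50 dox+ counts in 1000 bp, a scaled ratio of 0.992 (0.628 to 1.55). R19269 on chromosome 7 (28477553 to 28478553) had 31 and 43 counts and was nearly level at 0.993 (0.605 to 1.61). R13275 on chromosome 2 (165953301 to 165954301) had 36 counts in each library, which the scaling turns into 1.38 (0.843 to 2.25). Among the 8 regions with the most counts per kb were also R02879 on chromosome 11 (ratio 1.08), R07880 on chromosome 15 (1.38) and R09631 on chromosome 17 (0.633), all with intervals that include 1. The other two, R15892 on chromosome 4 (135720671 to 135721671; 38 and 28 counts) and R02755 on chromosome 11, had ratios of 1.87 (1.12 to 3.16) and 3.83 (2.19 to 6.97). Both lay on the dox- side, and R02755 differed most.

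With equal totals, 135 of the 230 crowded regions with 20 or more counts were higher and 95 lower in the dox- library. By 2-fold, 19 (8.26%) were higher and 10 (4.35%) lower. Of the 384 other regions with 20 or more counts, 219 were higher and 165 lower, 24 (6.25%) by 2-fold higher and 20 (5.21%) by 2-fold lower. Ranked by the log2 ratio with a pseudocount of 1, the largest increase was R02755 (6312287 to 6313287), at 1.87 from 50 dox- and 18 dox+ counts. R19401 on chromosome 7 (31387019 to 31388777), in the third largest stretch, came next at 1.82, though its ratio without the pseudocount, 4.13 (1.43 to 14.5) from 15 and 5 counts, was above the 3.83 of R02755. The remaining 6 of the 8 largest increases, R09421, R04322, R15813, R15731, R20761 and R09471, had ratios between 2.51 and 2.75. The 8 lie on chromosomes 4, 7, 8, 11 and 17.

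The largest decrease was R14095 on chromosome 3 (89801687 to 89802687), at a ratio of 0.306 (0.0753 to 0.929) from 4 dox- and 18 dox+ counts. R09555 on chromosome 17 (31015752 to 31016752) stood at 0.324 (0.0793 to 0.993) from 4 and 17 counts. R21803 on chromosome 8 (113565933 to 113567859) was the best covered of the 8 largest decreases, at 0.473 (0.215 to 0.964) from 11 and 32 counts. It lies in a chromosome 8 stretch (113332085 to 114558067) whose 65 regions together stood at 0.793 (0.642 to 0.978), from 144 and 250 counts. The other 5, R21722, R18231, R00899, R01924 and R14187, had ratios between 0.344 and 0.459, with intervals that include 1. All these regions were picked for the size of their difference, which makes their intervals descriptions and no test.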

How the data were processed

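MeDIP-seq counts of 2 libraries, 1 per group, were used (1.5 and 0 µg/ml doxycycline). Per the labels' protocols, sheared, denatured genomic DNA was captured with a 5mC antibody and read on a Genome Analyzer II. The build is mm9, per the submitters' processing notes. The sources used here do not give the aligner, the counting, the duplicate handling or the choice of regions. The authors deposited raw counts. The adjusted signal deposited by the authors equals the count times 1.19 (dox-) or 0.863 (dox+), within 0.049, and is n/a for 14 regions, none of them crowded. Those 14 were left out of signal values. Starts are printed as deposited, and whether they count from 0 or 1 is not stated.

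Ratios of summed counts carry 95% exact Clopper-Pearson intervals, counts per kb exact Poisson intervals, and the ratio of crowded against other regions an exact conditional interval, all for counting error only. With 0 residual degrees of freedom no test across replicates was possible, and no p-value is given. Because the median region holds 1 or 2 counts per library, single regions are imprecise. Named were, by rule, the 10 stretches with the most regions, the 8 largest increases and decreases in log2 ratio among crowded regions with at least 20 counts, the 8 with most counts per kb, and the region with most neighbours. Other stretches were named after their values were seen. Regions and alternatives were chosen with earlier results of these data known. Functions were tested on simulated data. Python 3.11.15, numpy 2.4.6, pandas 2.3.3, scipy 1.17.1, statsmodels 0.14.6, matplotlib 3.10.9, R 4.3.3, edgeR 4.0.16 and DESeq2 1.42.0 were used.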

Additional observations from a re-analysis of the deposited data

Results flagged for a closer look

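Counts were also present in the 8 autosomal regions without an adjusted value, which lie outside the comparisons. They held 1241 dox- and 1526 dox+ counts, which scales to a ratio of 1.12 (exact interval 1.04 to 1.21) with equal totals. The totals that set this scaling leave these regions out, and the other scalings lower the ratio. Single regions ran from 0.854 (0.664 to 1.09) for R08311 to 1.44 (1.10 to 1.88) for R01408. None is crowded: they had between 2 and 22 neighbours. Each held between 214 and 873 counts, while no crowded region had more than 98. The region with 22 neighbours, which also held the most counts, is R02654 on chromosome 11 (3092559 to 3094077), with 405 dox- and 468 dox+ counts.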

How the results depend on the processing

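With 76 values recomputed over the alternatives, 47 kept their direction and their side of the threshold (or, for numbers of regions, stayed within 1.5 times). Some of the 47 could not change. Including the regions without an adjusted value adds no crowded region, so the values of the crowded set alone are the same by construction. The higher counts per kb of crowded regions kept their direction in both libraries under the alternatives tried, except with filters for well-filled regions, which select on the counts themselves. They turned to 0.985 (dox+) and 0.992 (dox-) with at least 10 summed counts, and to 0.930 and 0.962 with at least 20, a filter chosen after seeing the data. The relative dox- to dox+ value of 1.03 kept its direction throughout. Its interval reached 1 with a minimum of 20 neighbours (1.02) and with at least 10 counts (1.01). It also reached 1 in 3 comparisons chosen after seeing the data: under 20 counts (1.03), within chromosomes (1.02) and within count classes (1.03). The relative value rose to 1.05 (1.02 to 1.08) with a minimum of 30 neighbours and to 1.06 (1.02 to 1.11) in regions of 1000 bp. The ratio of crowded regions alone, 1.02, turned to 0.927 under TMM, 0.847 under the median of ratios and 0.741 without scaling. It left 1 at 1.04 with a minimum of 30 neighbours, at 1.05 in regions of 1000 bp and at 1.03 with at least 10 counts. A minimum of 30 neighbours left 4280 crowded regions. The numbers of 2-fold lower and higher regions moved most. They were 430 and 505 among the 2807 crowded regions of 1000 bp, and 95 and 85 among the 1045 with at least 10 counts. These 2 settings also shrink the set itself. The numbers were 1973 and 1719 at 1.5-fold, 173 and 141 at 4-fold, and 0 and 1 with a pseudocount of 10. There were 1760 lower with a pseudocount of 0.1, 1979 lower without scaling, and 564 higher under the median of ratios. A share over all autosomal regions is given only with at least 10 counts (9.34% lower, 8.46% higher). For the other settings, whether crowded regions differ from that background was not tested. TMM set the dox- factor at 1.25 times the dox+ factor over the regions with an adjusted value and at 1.31 over all listed regions, against 1.38 from the totals. No paired analysis was possible because each group has 1 library, and no library could be left out.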
